A study of Mus musculus with 4 samples.

Results

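In cluster 5 of the authors' clustering of mesenteric lymph node CD4 T cells, 323 cells carried at least 1 Foxp3 UMI (a UMI marks 1 captured RNA molecule). These 323 cells, called Foxp3-positive cluster 5 cells here, were 323 of 16948 analysed cells. They were chosen by the deposited cluster number and the Foxp3 count, so their Foxp3 level is not tested, and the S100a4, S100a6, Lgals1 and Ccr2 levels that mark the cluster are tested only between cells of cluster 5 itself. They were set beside the 1370 cells of cluster 5 with 0 Foxp3 UMIs (Foxp3-negative cluster 5 cells) and beside 1997 Foxp3-positive cells of clusters 0, 3 and 6, where most Foxp3 counts lie.

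The study profiled single CD4 T cells of male germ-free mice of the strains Foxp3GFP and Foxp3CNS1-, sorted by GFP, which reports Foxp3. Mice of each strain either stayed germ-free or received the gut flora of specific-pathogen-free mice, and cells were taken 9 days later. Every library pooled the lymph nodes of 3 mice and was loaded with GFP-positive and GFP-negative cells in equal parts, so the sort sets shares of Foxp3-expressing cells in part. The 4 groups have 1 library each, so differences between libraries and between groups cannot be told apart. Values for the libraries are given in the order germ-free Foxp3GFP, colonized Foxp3GFP, germ-free Foxp3CNS1- and colonized Foxp3CNS1-, and the Foxp3-positive cluster 5 cells numbered 34, 84, 55 and 150 in that order. The counts come from the 3′ ends of transcripts and so do not read the CNS1 deletion.

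Foxp3 is the transcription factor that defines regulatory T (Treg) cells, which restrain other immune cells and depend on interleukin 2 from their neighbours. Some Treg cells form in the thymus and others arise from conventional CD4 T cells in tissues such as the gut, where CNS1, an intronic enhancer of Foxp3 that responds to TGF-beta, takes part in their induction. S100a4 and S100a6 encode small calcium-binding proteins, Lgals1 a galectin and Ccr2 a chemokine receptor, and all 4 are known from effector and memory T cells that have left the naive state.

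The labels were checked against these markers. In Foxp3-positive cluster 5 cells S100a4 (mm10 chromosome 3, 90603771 to 90606045) stood at 348, 293, 111 and 202 CPM (the usual unit of counts scaled to the total UMIs of the summed cells), and S100a6 (chromosome 3, 90612882 to 90624181) at 981, 1065, 244 and 839 CPM. Lgals1 (chromosome 15, 78926725 to 78930465) stood at 708, 1506, 628 and 1025 CPM. Ccr2 (chromosome 9, 124101950 to 124113557) had 12.4, 273, 14.8 and 152 CPM, which in the germ-free libraries rests on 1 and 2 UMIs, so this marker was close to absent there. Foxp3 (chromosome X, 7573644 to 7595245) summed to 450 CPM, against 475 CPM in the Foxp3-positive cells of clusters 0, 3 and 6. The T cell markers were present, with Cd3e at 472, 480, 458 and 430 CPM and Cd4 at 186, 181, 162 and 114 CPM.

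The markers of other cells named here were read at low levels, apart from Ighm, which is given below. Cst3 of the myeloid list and Cd74 of the B cell list had enough counts in cluster 5 to enter fits given below. Their levels are not given here. Cd79a, which encodes a chain of the B cell receptor complex, had 0 UMIs, and Klrb1c of natural killer cells and Zbtb16 of innate-like T cells also had 0. Lyz2, a myeloid gene, had 3 UMIs, against 674 in Foxp3-negative cluster 5 cells, of which 81.2% lay in 3 cells. The T cell lineage gene Cd8a had 18 UMIs in 7 cells, or 17.6 CPM, against 1.15 CPM in Foxp3-negative cluster 5 cells, and both CD8 markers together summed to 22.1 to 62.1 CPM against 13.4 to 17.5 CPM. Of the gamma delta T cell genes, Trdc had 18 UMIs in 7 cells, or 17.6 against 7.84 CPM, Tcrg-C2 had 8 UMIs and Tcrg-C1 had 5. Xbp1, a factor of secretory cells, was at 64.7 against 53.0 CPM. A rule for cells with markers of another type was met by 62 of the 323 cells and by 134 of the 1370 Foxp3-negative cluster 5 cells, and the part of such cells in the results was not tested beyond the fit without them given below. Pooled over the libraries, depth was close, with a median of 2715 UMIs per cell in Foxp3-positive cluster 5 cells. The median was 2667 in Foxp3-negative cluster 5 cells and 2627 in Foxp3-positive cells of clusters 0, 3 and 6. By library the Foxp3-positive cluster 5 cells had medians of 2231.5, 3229.5, 2090 and 2806 UMIs, so the germ-free cells were shallower. The 4 sums of Foxp3-positive cluster 5 cells held 80547, 304177, 135466 and 500407 UMIs, so the germ-free Foxp3GFP sum is the shallowest. Of these cells, 2 had a barcode that also occurs in another library.

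Foxp3 was read in 16.8%, 24.4%, 16.8% and 18.3% of cluster 5 cells in the 4 libraries. The exact 95% intervals, which cover counting error only, were 11.9% to 22.7%, 20% to 29.3%, 12.9% to 21.3% and 15.7% to 21.1%, and they overlap. The shares in clusters 0, 3 and 6 were 30%, 34.8%, 24.2% and 30.9%. Clusters 1 and 2 had a median of 2697 UMIs per cell and the highest summed level of the naive list. Their shares were 7.02%, 5.75%, 6.23% and 3.18%. Cluster 5 therefore lay between the others in each library. With at least 2 Foxp3 UMIs asked for, the shares in clusters 1 and 2 were 1.07%, 1.40%, 1.26% and 0.723%. Whether such cells express Foxp3 or hold stray reads was not tested. With each cell thinned to 2000 UMIs the shares in cluster 5 were 12.8%, 17.0%, 12.2% and 12.9%, and those in clusters 1 and 2 were 5.43%, 4.74%, 4.38% and 2.41%. Since most cells of clusters 0, 3 and 6 had no Foxp3 UMI either, a count of 0 does not show that a cell lacks Foxp3, and the Foxp3-negative cluster 5 cells may hold cells that express it. Of the 323 cells, 220 were just inside the rule with 1 Foxp3 UMI, 79 had 2, 18 had 3 and 6 had more, and the 1370 cells just outside had 0.

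**Figure D1:**
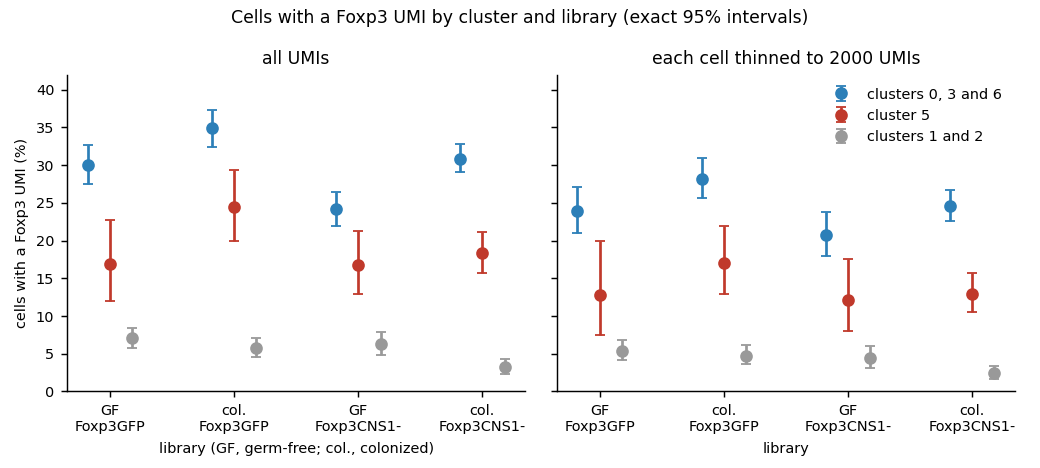
Share of cells with at least 1 Foxp3 UMI (y axis, percent) in cluster 5, in clusters 0, 3 and 6 and in clusters 1 and 2 of each library (x axis), with exact 95% intervals, from all UMIs (left) and with each cell thinned to 2000 UMIs (right). Cluster 5 lies between the other sets of clusters in every library, at 16.8% to 24.4% from all UMIs.

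Within cluster 5, the cells with a Foxp3 UMI carried more RNA of the Treg program outside Foxp3 itself. The list of 20 Treg core genes was, like the other lists, chosen with earlier results of these data known. Of its genes, 15 had enough counts to be tested, and 14 of these rose. The median log2 difference of the list was 1.13 against -0.01 for all genes tested. The genes that rose cover the interleukin 2 receptor, costimulatory receptors and transcription factors of the Ikaros family. Of 11 follicular helper genes tested 7 fell, and of 13 naive genes 5 fell. The test was edgeR's quasi-likelihood test on the sums of the 4 libraries with library as a block, with Foxp3 taken out of the counts and Benjamini-Hochberg adjustment over 5027 genes. At an adjusted p under 0.05 it called 182 genes higher, or 3.62%, and 122 lower, or 2.43%. DESeq2 called 71 higher and 30 lower, so its calls leaned further to the higher side, and 101 genes were called by both tools. The libraries are 4 different conditions, so the p-values measure the average difference against its spread over them. A call does not show that each library had the difference.

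Il2ra (mm10 chromosome 2, 11642807 to 11693193), the alpha chain that gives Treg cells high affinity for interleukin 2, stood at 186, 214, 170 and 178 CPM in Foxp3-positive and at 70.3, 62.5, 43.1 and 57.6 CPM in Foxp3-negative cluster 5 cells. The groups did not overlap, and the log2 difference was 1.70 (SE 0.15, n = 4 libraries, edgeR quasi-likelihood adjusted p = 8.02e-12). Compared within each library, 10.0% of all genes tested were higher in 4 of 4 libraries and 11.1% were lower. The share of all genes whose groups did not overlap was not counted, here and for the genes below. Pim1 (chromosome 17, 29490753 to 29496112), a survival kinase downstream of STAT5, stood at 633, 661, 627 and 729 CPM against 233, 274, 266 and 249 CPM. This is a log2 difference of 1.40 (SE 0.10, edgeR quasi-likelihood adjusted p = 4.54e-16), and each Foxp3-positive sum was above every Foxp3-negative one. Of the 14 genes in the list for interleukin 2 and STAT5, 12 were tested and 8 rose, with a median log2 difference of 0.76. Besides Il2ra and Pim1 these were the beta chain Il2rb (0.97), the feedback inhibitors Cish (1.08), Socs1 (0.57), Socs2 (1.20) and Socs3 (0.65), and Gadd45g (0.87). Bcl2, a survival gene, was at a log2 difference of 0.18 and did not pass.

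Transcription factors and receptors of Treg cells showed the same direction. Ikzf2 (chromosome 1, 69531214 to 69687245), which encodes Helios, stood at 968, 569, 591 and 598 CPM against 376, 188, 298 and 179 CPM, with no overlap. Its log2 difference was 1.49 (SE 0.10, edgeR quasi-likelihood adjusted p = 8.11e-16). Ikzf4, which encodes the related factor Eos, rose by 1.90 (SE 0.33). Ctla4 (chromosome 1, 60887000 to 60915832), a coinhibitory receptor through which Treg cells act on antigen-presenting cells, stood at 211, 345, 236 and 244 CPM against 149, 108, 105 and 92.96 CPM. Its log2 difference was 1.34 (SE 0.14, edgeR quasi-likelihood adjusted p = 3.31e-10). The orphan receptor gene Gpr83 stood at 273, 122, 103 and 144 CPM against 76.9, 40.2, 60.4 and 39.7 CPM, a log2 difference of 1.63 (SE 0.18). Lrrc32, which encodes the surface anchor GARP of latent TGF-beta, rose by 1.77 and the semaphorin receptor Nrp1 by 0.90. The TNF receptor family genes Tnfrsf18 (GITR) and Tnfrsf4 (OX40) rose by 0.87 and 0.86, and Tnfrsf4 was higher in 3 of 4 libraries only, with 410 against 528 CPM in germ-free Foxp3GFP. Nt5e, which encodes CD73, was the 1 tested Treg core gene that did not pass, at 0.44 (adjusted p = 0.115, edgeR quasi-likelihood test).

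**Figure D2:**
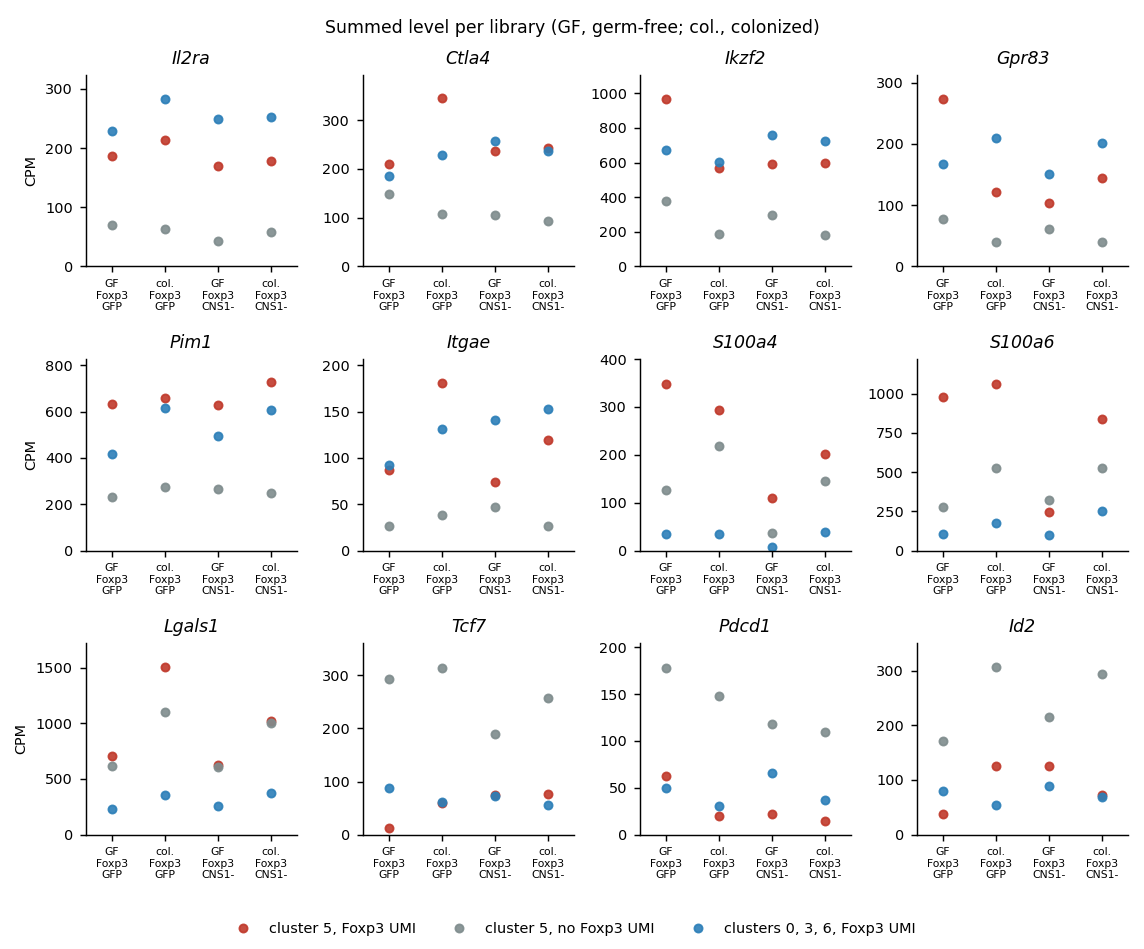
CPM of 12 genes (y axis, linear, from 0) in the 4 libraries (x axis), as the sum of Foxp3-positive cluster 5 cells (red), Foxp3-negative cluster 5 cells (grey) and Foxp3-positive cells of clusters 0, 3 and 6 (blue). Il2ra, Ikzf2 and Pim1 are higher and Tcf7, Pdcd1 and Id2 lower in red than in grey in all 4 libraries, while S100a4 and Lgals1 are higher in red than in blue in all 4.

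The effector Treg list was more mixed. Of 22 genes, 12 were tested, 6 rose and 1 fell, with a median log2 difference of 0.57. Itgae (chromosome 11, 73090583 to 73147446), the alpha chain of the integrin CD103 that binds E-cadherin of epithelium, stood at 86.9, 181, 73.8 and 120 CPM against 26.4, 38.0, 47.4 and 26.2 CPM. The groups did not overlap, and its log2 difference of 1.94 (SE 0.21, edgeR quasi-likelihood adjusted p = 7.41e-10) was the largest among the Treg lists. Tnfrsf1b, the TNF receptor 2 gene, rose by 1.71, Fgl2, which encodes a secreted fibrinogen-like suppressive protein, by 1.47, Tnfrsf9 (4-1BB) by 1.13 and Icos by 0.47. Gzmb, the serine protease granzyme B, passed at 0.50 (edgeR quasi-likelihood adjusted p = 0.0408), but its values of 0, 542, 0 and 164 CPM against 0, 291, 8.62 and 159 CPM were clearly apart in colonized Foxp3GFP alone. Lag3, a coinhibitory receptor, was at 0.64 and did not pass (adjusted p = 0.0575, edgeR quasi-likelihood test).

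Genes tied to induced Treg cells of the gut were less uniform. Of 12 genes in that list, 9 were tested and 3 rose, Ccr9, Gzmb and Itgae, with a median of 0.20. Ccr9, the receptor for the small intestinal chemokine CCL25, stood at 149, 200, 36.9 and 73.9 CPM against 28.6, 38.0, 50.3 and 20.5 CPM, so germ-free Foxp3CNS1- went the other way. Its log2 difference over the 4 libraries was 1.82 (SE 0.24, edgeR quasi-likelihood adjusted p = 1.33e-07). The transcription factor genes Maf and Rora, at 0.03 and 0.20, did not pass. Of the TGF-beta pathway list, 9 of 13 genes were tested, the receptor gene Tgfbr1 (1.12) and Lrrc32 rose, and Furin, a convertase that processes the TGF-beta precursor, fell by 1.28.

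Of the follicular helper list, 11 of 16 genes were tested, 7 fell and 1 rose, with a median log2 difference of -0.89. Pdcd1 (chromosome 1, 94038305 to 94052553), which encodes PD-1, stood at 62.1, 19.7, 22.1 and 14.0 CPM in Foxp3-positive against 178, 147, 118 and 110 CPM in Foxp3-negative cluster 5 cells. The groups did not overlap, and the log2 difference was -2.61 (SE 0.25, edgeR quasi-likelihood adjusted p = 2.28e-11). Cxcr5, the receptor that leads cells into follicles, fell by 0.96, Tox2 by 1.81, Tox by 0.89 and the surface glycoprotein gene Cd200 by 1.07. Il4, the type 2 cytokine, had 1 UMI in all 323 cells, against 39.6, 21.2, 77.6 and 23.1 CPM in the Foxp3-negative cells, and passed the test. Icos was the member that rose. Of 20 cytokine genes 7 were tested, and besides Il4 the ligands Tnfsf8 (CD30 ligand) and Cd40lg fell, by 2.50 and 1.67, while Ltb (lymphotoxin beta) rose by 0.35. Of the Th1 list 7 of 12 genes were tested, 2 fell, Nkg7 by 1.28 and Il18r1 by 1.23, and none rose, with a median of -0.32. Of the Th17 list 5 of 12 were tested, 2 fell, Tmem176a and Tmem176b, and none rose, with a median of -0.52.

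**Figure D3:**
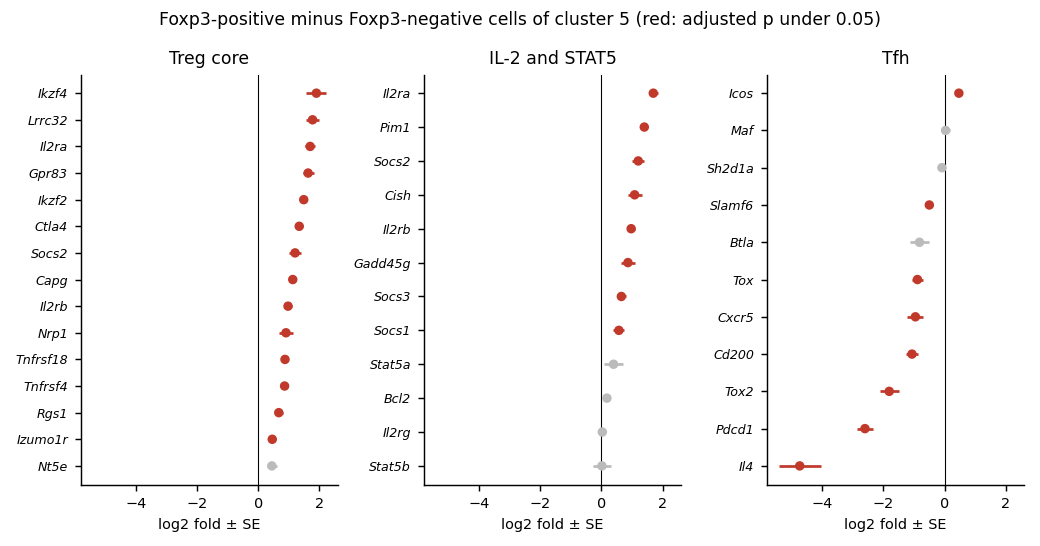
Log2 difference with its SE (x axis) of each tested gene (y axis) of the Treg core, interleukin 2 and STAT5, and follicular helper lists between Foxp3-positive and Foxp3-negative cluster 5 cells, red where the edgeR adjusted p was under 0.05. Of the 15 Treg core genes 14 are red and right of 0, and of the 11 follicular helper genes 7 are red and left of 0.

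Of 15 naive genes 13 were tested and 5 fell, with a median log2 difference of -0.34. Tcf7 (chromosome 11, 52252371 to 52283014), which encodes TCF-1, stood at 12.4, 59.2, 73.8 and 75.9 CPM against 292, 314, 190 and 257 CPM. All Foxp3-positive sums were below all Foxp3-negative ones, with a log2 difference of -2.03 (SE 0.18, edgeR quasi-likelihood adjusted p = 2.97e-12). Lef1, a partner of TCF-1, fell by 0.57 and Dapl1 by 2.89. Ccr7 and Klf2, which belong to lymph node traffic, did not pass, with Klf2 at -0.02. Id2 (chromosome 12, 25093799 to 25097140), an inhibitor of E proteins, stood at 37.2, 125, 125 and 71.9 CPM against 171, 306, 216 and 295 CPM and fell by 1.56 (SE 0.16, edgeR quasi-likelihood adjusted p = 3.31e-10).

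Trafficking and effector genes changed in both directions. Of 9 tested chemokine receptors, Ccr2 and Ccr9 rose and Cxcr5, Cxcr6 (by 2.36) and Gpr183 (by 0.96) fell. For Ccr2 the call rests on the colonized libraries, at 273 and 152 CPM against 110 and 82.5 CPM, while both germ-free libraries were lower in Foxp3-positive cells. All 16 adhesion, entry and egress genes were tested, and 5 rose, including the integrin chain Itgb7 (0.34) and the selectin ligand Selplg (0.58), while Itga4 fell by 0.66. In the S100, galectin and annexin list 16 of 17 genes were tested, 6 rose and 3 fell. S100a4 rose by 0.67 and S100a10 by 0.57, S100a11 fell by 0.57, and Lgals1 was at 0.20 and did not pass (adjusted p = 0.125, edgeR quasi-likelihood test). S100a6 rose by 0.82, but was lower in germ-free Foxp3CNS1-, at 244 against 322 CPM.

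Some interferon-stimulated genes rose. Of 49 in the list 43 were tested, 11 rose and Slfn2 fell, with a median log2 difference of 0.38. Samhd1, a restriction factor that degrades nucleotides, stood at 571, 819, 679 and 829 CPM against 356, 425, 390 and 374 CPM, a log2 difference of 0.97 (SE 0.09, edgeR quasi-likelihood adjusted p = 1.07e-11). Outside the list, the interferon-inducible GTPase genes Iigp1 and Gbp3 rose by 1.47 and 1.68, and Ifngr1, a chain of the interferon gamma receptor, by 1.16. Of 15 cell cycle genes tested, Ube2c rose and the other tested ones did not pass. Most Ube2c UMIs of the Foxp3-positive Foxp3CNS1- cells lay in few cells, as given below. Of 12 glycolysis genes Aldoa and Pgk1 fell. None of 7 heat shock genes tested passed.

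Ighm, the immunoglobulin mu chain gene, rose as well and had one of the smallest p-values, at 1477, 1512, 1262 and 1225 CPM against 657, 548, 676 and 527 CPM (log2 difference 1.21, SE 0.08, edgeR quasi-likelihood adjusted p = 4.09e-17). It was read in 245 of 323 cells, with 5.94% of its UMIs in the 3 highest cells, and stood at 1424 CPM in the Foxp3-positive cells of clusters 0, 3 and 6. The 14 B cell markers together summed to 1407 to 1756 CPM in the Foxp3-positive and 711 to 1067 CPM in the Foxp3-negative cluster 5 cells, with Cd79a at 0 in the former. Between 4 and 9 of the 14 were read in each library's Foxp3-positive sum. The part of B cell RNA in these results was not tested. Without the cells that met the rule for markers of another type, which includes immunoglobulin counts, 159 genes were called higher and 88 lower, and the Treg core list still had 13 of 14 tested genes called higher.

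A second clustering by the authors divides the cells further. Of the 323 cells, 166 (51.4%) lay in its subset s3, 83 (25.7%) in s4, 60 (18.6%) in s7 and 13 (4.02%) in s5. The Foxp3-negative cluster 5 cells lay in s3 at 52.7%, in s4 at 9.56%, in s7 at 19.6% and in s5 at 17.7%. Read by subset, 38.8% of the cluster 5 cells in s4 had a Foxp3 UMI (exact interval 32.2% to 45.7%), 18.7% in s3, 18.2% in s7 and 5.08% in s5 (2.73% to 8.53%). Subset s4 made up 20.6%, 35.7%, 10.9% and 26.7% of the Foxp3-positive cluster 5 cells in the 4 libraries. Subset s3 made up 64.7%, 39.3%, 58.2% and 52.7% of them, and s7 8.82%, 20.2%, 27.3% and 16.7%. These subsets were made from the same counts, so their genes are given as a description.

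**Figure D4:**
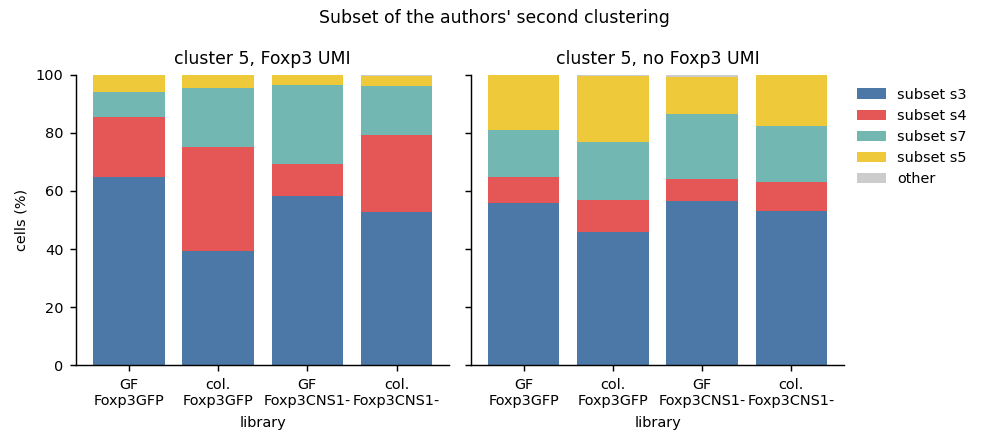
Share of cells (y axis, percent) in each subset of the authors' second clustering, by library (x axis), for Foxp3-positive (left) and Foxp3-negative (right) cluster 5 cells. Subset s4 (red) takes 10.9% to 35.7% of the Foxp3-positive cells.

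The subsets of Foxp3-positive cells had distinct leading genes. Those in s3 were led by Bcl2, at 483 CPM against 123 CPM in the other Foxp3-positive cluster 5 cells, with the surface protein gene Ly6c1 and with Id3, an inhibitor of E proteins. Those in s4 were led by Mmp9, a matrix protease gene, with 40 UMIs against 1. Most Mmp9 UMIs lay in few cells, as given below for the colonized libraries. Next was Gzmb, at 775 against 46.9 CPM, with UMIs in 25 of 83 cells. The s4 cells were also high in Lag3 (914 against 71.0 CPM), Icos (819 against 162 CPM), Ccr2 (420 against 62.9 CPM) and Klrg1 (102 against 2.68 CPM), genes of activated effector cells. Those in s7 were led by genes of dividing cells, among them Birc5, Ccnb2 and Stmn1, with Lgals1 at 2180 against 815 CPM. S100a6 was at 326 CPM in s3, 1250 in s4 and 1316 in s7. S100a4 was at 68.1, 435 and 282 CPM, Lgals1 at 449, 1261 and 2180 CPM and Ccr2 at 23.4, 420 and 126 CPM in the same order. All 4 genes that mark cluster 5 were thus lowest in s3, the subset with the most cells, among these 3.

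Most Treg core differences were also seen between cells of the same subset in s3, fewer passed in s7 and none in s4. These settings were added after the data had been seen. With each Foxp3-positive cell set beside the Foxp3-negative cell of its library and subset nearest in UMIs, which was possible for 322 cells, 50 genes were higher and 38 lower of 2789 tested. The Treg core list then had 14 genes tested and 10 called higher, with a median of 0.71. Il2ra was at 1.51, Ikzf2 at 1.03, Ctla4 at 1.12, Pim1 at 1.14, Itgae at 1.16, Tcf7 at -1.75 and Pdcd1 at -2.37, and all 7 passed edgeR's quasi-likelihood test. Within s3 alone 39 genes were higher and 31 lower, and 9 of 14 Treg core genes were called higher, and within s7 2 of 8 were. In s3 S100a4 was at 0.08 and S100a6 at 0.37 and neither passed. In s7 S100a4 was at -0.53 and S100a6 at 0.40, and in s4 S100a4 was at 0.83 and S100a6 at 0.82, and these did not pass either.

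Within s4 no gene was called higher and 1, the chemokine Ccl5, was lower, of 1048 genes tested, with 70 genes at an unadjusted p under 0.05 in edgeR's quasi-likelihood test. The Foxp3-negative cells of s4 already carried Treg genes, with Ikzf2 at 604 CPM against 921 in the Foxp3-positive ones, Ctla4 at 367 against 482 and Il2ra at 133 against 238. In s3 the same genes stood at 207 against 456, 63.9 against 155 and 72.9 against 204 CPM. With 83 and 131 cells, s4 allows fewer genes to be tested, and a missing call there does not show that the cells are alike.

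Against the Foxp3-positive cells of clusters 0, 3 and 6, the Foxp3-positive cells of cluster 5 had the effector genes that mark their cluster and a slightly lower Treg core. The authors clustered on these genes, so the values describe and do not test. Of 9583 genes with at least 20 UMIs, 62 (0.647%) were at least 2-fold higher with an interval for counting error that leaves out 1 and the same direction in 4 of 4 libraries, and 131 (1.37%) were lower. S100a4 was at 228 against 31.9 CPM, which is 2.84 as a log2 ratio (interval 2.56 to 3.12), S100a6 at 839 against 181 CPM (2.21, 2.08 to 2.34) and Lgals1 at 1091 against 324 CPM (1.75, 1.65 to 1.86). Of the S100, galectin and annexin list, 16 of 16 measured genes were higher, 13 of them in 4 of 4 libraries, which 8.33% of all genes were. The share of all genes higher by any amount in the pooled libraries was not counted. Other genes in this direction were Crip1, a LIM protein gene (1.21), the annexin gene Anxa2 (1.78), the glutaredoxin gene Glrx (1.23) and Ly6a, which encodes Sca-1 (1.28).

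The Treg genes lay close to their level in those clusters. All 20 Treg core genes were measured, 16 were lower and 4 higher, and none passed the 2-fold rule. The median log2 ratio was -0.34 against -0.03 for all genes, whose share of lower ratios was not counted. Ikzf2 was at -0.15, Gpr83 at -0.41, Il2ra at -0.44 and Tnfrsf4 at -0.64, while Ctla4 was at 0.24. By library, Il2ra had 228, 283, 248 and 252 CPM in clusters 0, 3 and 6, above each value of the cluster 5 cells given earlier. Pim1 was at 419, 617, 495 and 609 CPM there and was higher in Foxp3-positive cluster 5 cells in 4 of 4 libraries, by 0.30. Klf2, a factor that drives lymphoid egress genes, was at 0.78 and Itgb7 at 0.53.

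Some genes were lower in Foxp3-positive cluster 5 cells. Penk, which encodes the enkephalin precursor, had 2 UMIs there and 165 in the Foxp3-positive cells of clusters 0, 3 and 6, a log2 ratio of -3.76 (-6.82 to -1.88). Gzma, granzyme A, was at 0, 29.6, 7.38 and 22.0 CPM against 1.82, 81.7, 10.8 and 202 CPM, as a log2 ratio -2.30. Tnfrsf9 was at 12.4, 118, 81.2 and 95.9 CPM against 150, 189, 206 and 267 CPM, as a log2 ratio -1.19 (-1.50 to -0.89), although it was higher than in the Foxp3-negative cells of cluster 5. Cd83, an activation marker, was at -1.26. Of 24 measured cell cycle genes 18 were higher, with a median of 1.05 against the median for all genes given earlier. Mki67, Top2a and Hmgb2 passed the 2-fold rule, which 0.647% of all genes did in the higher direction.

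Colonized and germ-free libraries were compared within each strain, with 1 library per group and so no test. In Foxp3GFP 69 of 2562 genes with at least 20 UMIs (2.69%) were at least 2-fold higher after colonization and 57 (2.22%) were lower. In Foxp3CNS1- 53 of 3680 (1.44%) were higher and 71 (1.93%) lower. Foxp3 itself was at 534, 398, 576 and 434 CPM, which is a matter of the rule that chose the cells. The clearest differences were in effector genes that were at or near 0 in the germ-free libraries, and the intervals of ratios below cover counting error only.

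Gzmb (chromosome 14, 56258838 to 56262260) had 0 UMIs in both germ-free libraries, which allows up to 3 counts, 165 in colonized Foxp3GFP and 82 in colonized Foxp3CNS1-. Against a floor of 3 counts per library the log2 ratio was at least 3.86 and at least 2.89. The UMIs lay in 20 of 84 and 16 of 150 cells, and the 3 highest cells held 47.3% and 54.9% of them. In clusters 1 and 2 of the colonized libraries 0.516% and 0.723% of cells had a Gzmb UMI. By subset, 14 of 30 and 11 of 40 colonized s4 cells had one, against 0 of 7 and 0 of 6 germ-free s4 cells. Plac8 (chromosome 5, 100553725 to 100572245), a small cysteine-rich protein gene, had 157 UMIs against 0 in Foxp3GFP, a log2 ratio of at least 3.79, and 95 against 1 in Foxp3CNS1-, a log2 ratio of 4.68 (2.17 to 10.0). Ccr2 had 83 against 1 UMI, a log2 ratio of 4.46 (1.94 to 9.78), and 76 against 2, a log2 ratio of 3.36 (1.46 to 6.43). In library order, Ccr2 stood at 24.2, 110.5, 17.2 and 82.5 CPM in Foxp3-negative cluster 5 cells. In Foxp3-positive cells of clusters 0, 3 and 6 it stood at 4.55, 42.9, 0.982 and 51.1 CPM. By the values given earlier, Gzmb was also higher in both colonized libraries of Foxp3-negative cluster 5 cells. The rises of Ccr2 and Gzmb were thus not particular to Foxp3-positive cluster 5 cells.

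**Figure D5:**
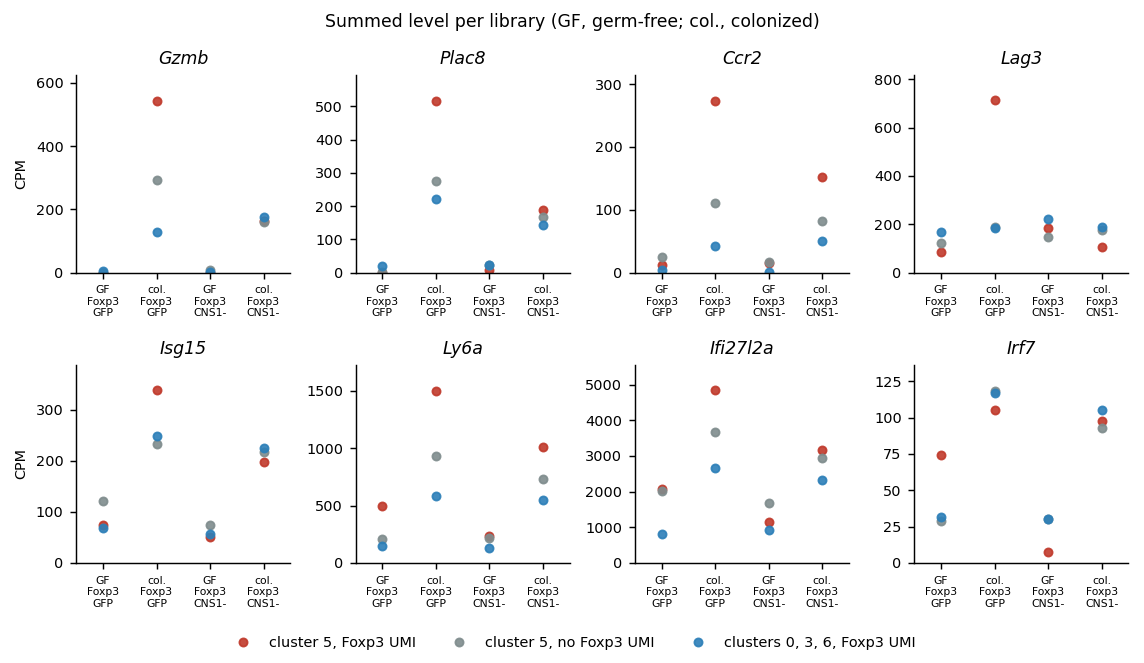
CPM of 8 genes (y axis, linear, from 0) in the 4 libraries (x axis), for Foxp3-positive cluster 5 cells (red), Foxp3-negative cluster 5 cells (grey) and Foxp3-positive cells of clusters 0, 3 and 6 (blue). Gzmb, Plac8 and Ccr2 in red are at or below 14.8 CPM in both germ-free libraries and at 152 CPM or more in both colonized ones, while Lag3 is high in colonized Foxp3GFP alone.

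Lag3 had ratios of opposite direction in the strains and Irf7 had ratios of unlike size, and neither difference was tested. Lag3 had 217 UMIs against 7 in Foxp3GFP, a log2 ratio of 3.04, with 63.1% of the 217 in 3 cells, and 54 against 25 in Foxp3CNS1-, a log2 ratio of -0.77. Irf7, a regulator of interferon responses, was at 0.50 (-0.78 to 2.05) in Foxp3GFP and at 3.73 (1.18 to 9.06) in Foxp3CNS1-, where it had 1 UMI in the germ-free library. S100a6 was at 0.12 in Foxp3GFP and at 1.78 (1.27 to 2.34) in Foxp3CNS1-.

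Interferon-stimulated genes were higher in both colonized libraries. In Foxp3GFP 33 of 35 measured genes had a ratio above 1, where 56.0% of all genes did, 6 were past 2-fold and the median log2 ratio was 0.57. In Foxp3CNS1- 37 of 39 did, where 50.6% of all genes did, 12 were past 2-fold and the median was 0.78. Isg15, a ubiquitin-like protein gene, was at 74.5, 339, 51.7 and 198 CPM, which gives log2 ratios of 2.18 (1.01 to 3.66) and 1.94 (0.84 to 3.29). Ly6a was at 497, 1502, 236 and 1013 CPM, or 1.60 and 2.10, and Ifi27l2a at 1.23 and 1.48. For the same genes the medians in Foxp3-negative cluster 5 cells were 0.68 and 0.50, and in Foxp3-positive cells of clusters 0, 3 and 6 they were 1.08 and 0.81. The Treg core list had 8 genes higher and 6 lower in Foxp3GFP, where 44.0% of all genes were lower, and 9 and 6 in Foxp3CNS1-, and of these Gpr83 alone passed 2-fold, lower in colonized Foxp3GFP.

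Genes lower after colonization in Foxp3GFP included Bcl2, at 191 against 484 CPM (log2 ratio -1.34), the T cell receptor signalling gene Tespa1 (-1.67) and Ccl5 (-2.03), with 80.0% of its UMIs in 3 cells. Subset s3, which Bcl2 led, held 39.3% of the colonized against 64.7% of the germ-free Foxp3GFP cells. The part of that share in the Bcl2 ratio was not tested. In Foxp3CNS1- they included Smad7, an inhibitor of TGF-beta signals, with 14 against 17 UMIs at unlike depth (log2 ratio -2.17, -3.30 to -1.06), and Ubald1 (-2.33). Of 8 cell cycle genes measured in Foxp3CNS1- all 8 were lower, where 49.4% of all genes were, and 4 passed 2-fold, with 92.7% of the Ube2c UMIs in 3 cells. Subset s7, led by genes of dividing cells, held 16.7% of the colonized against 27.3% of the germ-free Foxp3CNS1- cells. The part of that share in the ratios was not tested.

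The strains were compared in the same way. In germ-free mice 17 of 1505 genes (1.13%) were at least 2-fold higher in Foxp3CNS1- than in Foxp3GFP and 20 (1.33%) lower. In colonized mice 43 of 4335 (0.992%) were higher and 82 (1.89%) lower. The Treg core list had 5 genes higher and 8 lower in germ-free mice, where 51.0% of all genes were lower, with Gpr83 past 2-fold at -1.40, and 10 higher and 8 lower in colonized mice, where 44.7% of all genes were higher, with none past 2-fold and a median of 0.04. Foxp3 was at 0.11 (-0.45 to 0.68) and 0.12 (-0.20 to 0.46).

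Germ-free Foxp3CNS1- cells had low S100a6 and S100a4. S100a6 was at 244 against 981 CPM, as a log2 ratio -2.01 (-2.64 to -1.41), and S100a4 at 111 against 348 CPM, or -1.65 (-2.66 to -0.70). S100a4 was also lower in Foxp3-negative cluster 5 cells, at 35.9 against 127 CPM. The same held in Foxp3-positive cells of clusters 0, 3 and 6, at 7.86 against 33.6 CPM. S100a6 in these other cells was at 322 against 277 CPM and at 102 against 106 CPM. Both germ-free sums of Foxp3-positive cluster 5 cells rest on few cells. In germ-free Foxp3GFP 73.4% of the S100a6 and 75.0% of the S100a4 UMIs lay in 3 cells. In germ-free Foxp3CNS1- these shares were 54.5% and 80.0%. The serpin gene Serpina3g was at -1.75, Cd84, a receptor of the SLAM family, at -1.82 and the fatty acid-binding protein gene Fabp5 at -2.17. Higher genes included Arf4 (2.11), Chmp1a (2.57) and Hmgb2 (1.07), of which Hmgb2 was at 0.35 without cells that carry markers of another type.

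In colonized Foxp3CNS1- cells the lower genes included Gzmb, Plac8, Lag3, Mmp9 and Lilrb4a. Gzmb was at 164 against 542 CPM, as a log2 ratio -1.73 (-2.13 to -1.34), Plac8 at -1.44 (-1.83 to -1.07) and Lag3 at 108 against 713 CPM, or -2.72 (-3.18 to -2.29). Mmp9 had 2 against 35 UMIs (-4.85), and Lilrb4a, an inhibitory receptor, was at -2.92. All 8 measured genes of the induced Treg list were lower, where 55.3% of all genes were, and Ccr9, Gzmb and Lag3 passed 2-fold. Ccr9 was at 73.9 against 200 CPM, or -1.44 (-2.07 to -0.83). Several of these sums rest on few cells, with 78.4% of the Mmp9 UMIs in 3 cells, and subset s4 was 26.7% against 35.7% of the cells. The part of that share in the ratios was not tested. By the values given earlier, Gzmb and Ccr9 were also lower in colonized Foxp3CNS1- than in colonized Foxp3GFP among Foxp3-negative cluster 5 cells.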

How the data were processed

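Single CD4 T cells of 4 libraries were made with the 10x kit for 3′ ends (v3) and sequenced, per the labels' protocols. The authors' deposited table holds UMI counts per gene and cell, and the submitters' processing notes name mm10, Cell Ranger and Scanpy 1.5.1 without saying what each did. Whether doublets were removed is not stated in those notes. No doublet caller was run here, and cells above the 98th percentile of UMIs were left out as an alternative. Library, cluster and subset came from a second deposited table, of which 3 columns were not used. Of 17478 cells, 227 without a library and 303 marked as removed were left out, and 13314 genes were kept.

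The members and gene lists were chosen with earlier results of these data known. For each library, the counts of each class of cells were added up and given as CPM. Foxp3-positive and Foxp3-negative cluster 5 cells were compared with edgeR 4.0.16 (glmQLFit, glmQLFTest, TMM, filterByExpr, library as a block, R 4.3.3), on all genes but Foxp3, and 5027 were kept. DESeq2 1.42.0 was an alternative. The script was checked on simulated data. Other comparisons give ratios of CPM with exact 95% Clopper-Pearson intervals for genes with at least 20 UMIs, a floor of 3 counts against 0, and calls at 2-fold. Genes named were the 15 of smallest p per direction in the test, the 12 per direction against clusters 0, 3 and 6, 8 for colonization and 6 for strain whose interval bound was farthest from 1, and members of 30 lists. T cell receptor, immunoglobulin, ribosomal, mitochondrial and predicted genes were left out of that ranking. Gene positions come from GENCODE on mm10. Of the list genes, Ncr1, Klra8, Klre1, Ltbp4, Hlx, Il5, Il13, Trgc1, Trgc2, Mx1, Itgax, Csf1r, Cd14, Siglech and Tnfrsf17 were not analysed here, and some single-gene results are not reported here. Alternatives covered depth, filters, the Foxp3 rule, cells with markers of other types and each library left out.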

Additional observations from a re-analysis of the deposited data

Results flagged for a closer look

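In Foxp3-positive cluster 5 cells, 2 genes were past 2-fold in opposite directions after colonization in the strains, and the difference itself was not tested. Cd84, a receptor of the SLAM family, had a log2 ratio of -1.14 (-1.95 to -0.29) in Foxp3GFP and of 1.17 (0.22 to 2.28) in Foxp3CNS1-. Stmn1, a gene of dividing cells, was at 2.94 (0.35 to 8.29) in Foxp3GFP, with 1 UMI in the germ-free library, and at -1.01 (-1.88 to -0.10) in Foxp3CNS1-. Subset s7, led by genes of dividing cells, held 20.2% of the colonized against 8.82% of the germ-free Foxp3GFP cells. In Foxp3CNS1- it held 16.7% against 27.3%, and the part of these shares in the ratios was not tested. Among the 303 cells that the authors marked as removed, 16 had a Foxp3 UMI, or 5.28% (exact interval 3.05% to 8.43%).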

How the results depend on the processing

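Foxp3-positive against Foxp3-negative cluster 5 cells gave 182 genes higher and 122 lower in edgeR, and every alternative but s4 alone kept calls in both directions. The counts were 82 and 52 with no replicate block for the library, 71 and 30 in DESeq2, 84 and 53 with cells thinned to 2000 UMIs, 78 and 37 with at least 2 Foxp3 UMIs, and 98 and 54 against the nearest cell in UMIs. Without a filter on low counts 116 were higher and 171 lower, so the balance turned to the lower side. Leaving out 1 library at a time gave 81 to 179 higher and 47 to 116 lower, lowest without colonized Foxp3CNS1-, the deepest library, and 77 lower without colonized Foxp3GFP. Settings added after seeing the data gave 39 and 31 in s3, 0 and 1 in s4, 10 and 5 in s7, 50 and 38 with the nearest cell of the same subset, and 115 higher without s5. Fewer genes and cells entered most of these fits. This comparison is paired by library through the block. Of the named genes' results in this test 422 kept their call and 24 lost it, 14 of them within s4, and none reversed.

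For colonization and strain the design has no pairs. No paired analysis was possible because each group has 1 library. Of the named genes' values against clusters 0, 3 and 6, 207 kept their value within error and 46 moved, 12 of them without colonized Foxp3CNS1- and 12 with at least 2 Foxp3 UMIs. For colonization 70 held and 13 moved in Foxp3GFP, and 60 and 4 in Foxp3CNS1-. For strain these were 35 and 5 in germ-free and 42 and 4 in colonized mice. Against clusters 0, 3 and 6 leaving out a library gave 58 to 111 higher, with 100 without germ-free Foxp3GFP and 111 without colonized Foxp3CNS1-, where 3 libraries must share the direction, against 62. For colonization in Foxp3GFP, with 69 higher and 57 lower, thinning gave 38 and 17, at least 2 Foxp3 UMIs 22 and 15, and at least 50 UMIs per gene 37 and 9. In Foxp3CNS1- thinning gave 28 lower, at least 2 Foxp3 UMIs 29 lower, and 50 UMIs per gene 31 and 14. For strain in germ-free mice thinning gave 5 and 7, at least 2 Foxp3 UMIs 6 higher, 50 UMIs per gene 3 and 3, and leaving out cells with markers of other types 10 higher. In colonized mice thinning gave 48 lower, at least 2 Foxp3 UMIs 28 and 25, and 50 UMIs per gene 13 and 16. The share of cluster 5 cells with a Foxp3 UMI was 17.0% in colonized Foxp3GFP, 12.2% in germ-free and 12.9% in colonized Foxp3CNS1- after thinning. With at least 2 UMIs asked for it was 4.46%, 8.14%, 5.18% and 5.98%. With 34 and 55 cells, the germ-free sums limit every comparison of groups.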
